A study of Mus musculus with 10 samples.

Results

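The genes of the major milk proteins and of the membrane that coats milk fat globules were followed in single mammary tumours. The list held 10 genes, chosen by name: the caseins Csn1s1, Csn1s2a, Csn2 and Csn3, the whey proteins Wap and Lalba, the mucin-like Glycam1, and Btn1a1, Xdh and Mfge8 of the fat globule membrane. All 10 were measured on a probe set of a single gene, out of 22180 genes tested. RNA came from 5 Ezh2-/- and 5 Ezh2+/+ endpoint tumours of Tet-ON PyVmT mice, with 1 Affymetrix Mouse Gene 2.0 ST array per tumour. Mice of both genotypes were virgin FVB females on doxycycline, and in both the MMTV promoter drove the reverse tetracycline transactivator. The transactivator in turn switched on a transgene for the polyomavirus middle T oncogene and Cre recombinase, and in Ezh2-/- mice Cre deleted the conditional Ezh2 alleles of the same cells. The MMTV promoter is active in mammary epithelium and responds to steroid hormones, and stromal cells keep Ezh2. Tumours were collected at endpoint, and no age at collection is given for single tumours, so that age at collection and genotype cannot be told apart. No source used here says whether each tumour came from a different mouse, so the tests measure the spread between tumours.

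Caseins carry the amino acids and the calcium of milk in micelles. They are made together with whey proteins by the alveolar cells of the gland, when prolactin acts through its receptor and the kinase JAK2 on the transcription factor STAT5, with glucocorticoids acting beside it. Fat leaves the same cells as droplets wrapped in plasma membrane, and butyrophilin, xanthine oxidoreductase and lactadherin are proteins of that wrapping.

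In RefSeq, the casein genes lie in a cluster on mouse chromosome 5, whereas Wap, Lalba and the other members lie elsewhere. The windows around the start sites of 3 caseins are shown because the genes share a neighbourhood and because Csn2 and Csn1s2a varied together from tumour to tumour, with Csn1s1 less so. Each window runs from 250 bases before to 50 bases after the start site, 5′ to 3′ on the strand of the gene, from RefSeq on GRCm38.p6. Capitals mark each match to TTCNNNGAA, the letters to which STAT factors bind. The motif is its own reverse complement, so that a match counts for both strands, and no other motif was searched.
Csn2, chr5:87699376-87699675, minus strand: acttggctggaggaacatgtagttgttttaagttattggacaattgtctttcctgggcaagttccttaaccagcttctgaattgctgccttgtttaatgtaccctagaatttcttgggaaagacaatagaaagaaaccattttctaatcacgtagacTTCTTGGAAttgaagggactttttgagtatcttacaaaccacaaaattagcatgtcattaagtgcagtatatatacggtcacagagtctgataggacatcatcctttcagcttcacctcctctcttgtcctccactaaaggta
Csn1s2a, chr5:87774200-87774499, plus strand: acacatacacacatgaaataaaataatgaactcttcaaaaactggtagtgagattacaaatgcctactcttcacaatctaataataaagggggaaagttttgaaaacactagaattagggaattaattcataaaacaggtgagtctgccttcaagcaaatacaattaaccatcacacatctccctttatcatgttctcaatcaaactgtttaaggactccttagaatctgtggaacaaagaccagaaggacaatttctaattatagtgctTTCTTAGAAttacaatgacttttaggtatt
Csn1s1, chr5:87665958-87666257, plus strand: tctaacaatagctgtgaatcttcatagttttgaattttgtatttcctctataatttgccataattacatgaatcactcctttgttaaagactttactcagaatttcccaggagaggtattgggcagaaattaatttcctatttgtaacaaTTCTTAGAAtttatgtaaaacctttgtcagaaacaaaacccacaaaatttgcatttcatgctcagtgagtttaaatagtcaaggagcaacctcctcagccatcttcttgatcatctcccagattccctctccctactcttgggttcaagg
The match began 93 bases before the start site in Csn2 and 100 bases before it in Csn1s1, and in Csn1s2a it began 20 bases after it. Of the 10 members, 7 were in the promoter table, and 4 of these held the letters, the fourth being Glycam1 at 145 bases before its start. Wap, Lalba and Mfge8 held none, though Wap varied with Csn2 and Csn1s2a more closely than Csn1s1 did. Among all 32851 windows of the table, 8.3% held them. A match is a description of letters and not a binding site, and nothing was measured here on binding.

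Deposited values were gene-level log2 signals normalized by the authors, and a probe set's level says nothing about the level of another gene. Array medians lay between 4.35 and 4.46 in Ezh2-/- tumours, against 4.54 to 4.67 in Ezh2+/+ tumours, and the highest value on any array was 13.2. The Ezh2 signal averaged 6.42 ± 0.061 in Ezh2-/- tumours and 7.46 ± 0.30 in Ezh2+/+ tumours (SD, n = 5 each), without overlap. Markers of luminal epithelium were measured for 12 of 12 genes, with mean levels between 8.79 and 9.23 in Ezh2-/- tumours, against 8.80 to 9.14 in Ezh2+/+ tumours. None of the 12 passed an adjusted p under 0.05, with 1 higher and 2 lower at an unadjusted p under 0.05. Of 7 markers of luminal progenitors, the epithelial cells from which alveolar cells arise, 2 were higher, Cd14 and Ltf, and 0 lower. At an unadjusted p under 0.05, 4 of the 7 were higher. Over all genes the shares higher were 7.29% at the adjusted and 18% at the unadjusted threshold. The mean of the progenitor markers lay between 8.43 and 8.94 in Ezh2-/- tumours, against 8.06 to 8.45 in Ezh2+/+ tumours. The part of these cells in the milk gene values was not tested. Markers of skeletal muscle, a tissue that borders the gland, averaged 9.02 in Ezh2-/- replicate 1 and 7.86 in Ezh2-/- replicate 5, against at most 5.42 in the other Ezh2-/- tumours and 5.44 in Ezh2+/+ tumours. In whole tumours, fewer cells of a type and less RNA per cell cannot be told apart.

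To ask whether loss of Ezh2 went with a change in milk gene expression, the genotypes were compared with limma over all genes. All 10 genes had the higher mean in Ezh2-/- tumours, where 53.3% of all genes had, but 2 of 10 passed an adjusted p under 0.05. The 2 were Btn1a1 and Mfge8, both of the fat globule membrane. Over all genes 7.29% passed as higher and 7.56% as lower. Of the members, 4 had an unadjusted p under 0.05 in limma, all of them higher, against 18% of all genes, and 0 were lower at either threshold in limma or in the equal-variance test of the methods. Btn1a1 and Xdh passed the methods' own threshold of an unadjusted p under 0.05 with a fold over 1.5, as did 4.79% of all genes. The members had a median of 0.79 on the log2 scale, against 0.03 over all genes. In none of the 10 did every Ezh2-/- tumour lie above every Ezh2+/+ tumour, which 5.05% of all genes did. Without the 2 Ezh2-/- tumours high in muscle markers, Btn1a1, Xdh and Mfge8 were called. The members were measured in the same tumours, so they are not independent of each other.

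**Figure D1:**
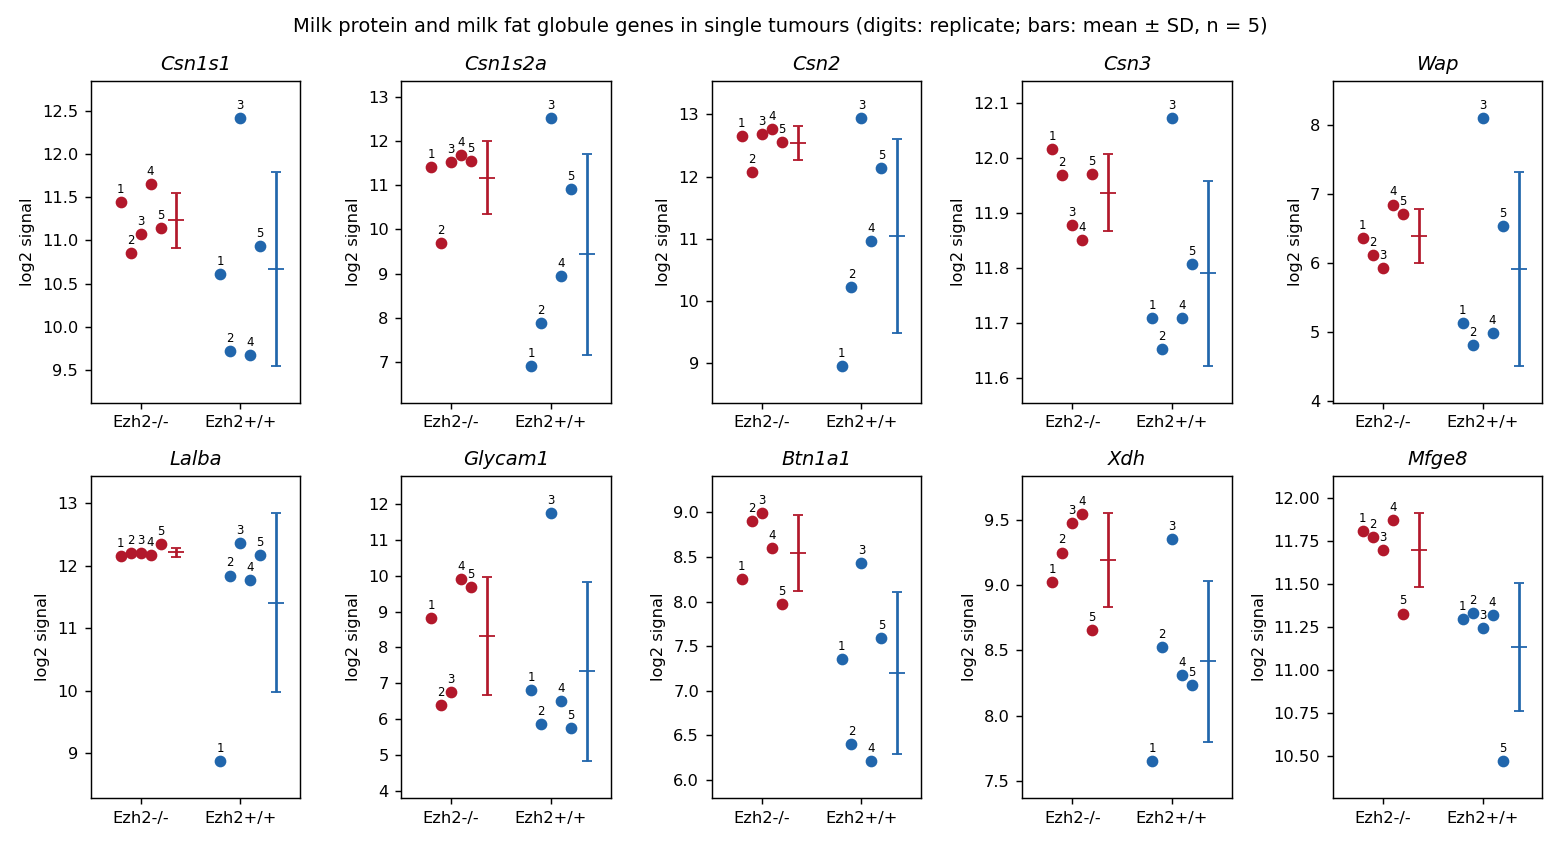
Log2 signal of each of the 10 genes (vertical axis, own scale per gene) in 5 Ezh2-/- and 5 Ezh2+/+ tumours, with the replicate number at each point and mean ± SD as bars. The Ezh2-/- tumours lie close together for Csn2, Lalba and Csn3, and Ezh2+/+ replicate 3 is the highest of all tumours in 7 of 10 genes.

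Beta-casein, encoded by Csn2, is a main protein of mouse milk. In Ezh2-/- replicates 1 to 5, Csn2 had log2 signals of 12.65, 12.08, 12.68, 12.76 and 12.55, against 8.96, 10.23, 12.94, 10.96 and 12.13 in Ezh2+/+ replicates 1 to 5. The Ezh2-/- tumours were all high, and 3 of the Ezh2+/+ tumours lay below every one of them, while Ezh2+/+ replicate 3 was above them all. The mean was 12.54 ± 0.27 in Ezh2-/- and 11.04 ± 1.57 in Ezh2+/+ tumours (SD, n = 5 each). The difference of 2.83-fold (95% interval 0.26 to 2.74 on the log2 scale, standard error 0.57) did not pass after adjustment (adjusted p = 0.0913).

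Csn1s2a, the gene of an alpha-S2-like casein, followed the same order of tumours in Ezh2+/+ mice. Its log2 signals were 11.40, 9.69, 11.52, 11.69 and 11.56 in Ezh2-/- replicates 1 to 5, against 6.92, 7.89, 12.52, 8.94 and 10.92 in Ezh2+/+ replicates 1 to 5. Among Ezh2+/+ tumours it spanned 5.60 log2 units, and among Ezh2-/- tumours replicate 2 stood below the other four. Its log2 fold change of 1.74 had a 95% interval from -0.15 to 3.62 (standard error 0.87, adjusted p = 0.180).

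Csn1s1 encodes alpha-S1-casein, and its log2 signals were 11.45, 10.86, 11.07, 11.65 and 11.14 in Ezh2-/- replicates 1 to 5, against 10.61, 9.72, 12.41, 9.67 and 10.94 in Ezh2+/+ replicates 1 to 5. Again 3 Ezh2+/+ tumours lay below all Ezh2-/- tumours and replicate 3 above them, with a difference of 0.56 on the log2 scale (standard error 0.42, 95% interval -0.36 to 1.48, adjusted p = 0.370). Csn3, which encodes kappa-casein, the casein that caps the micelle surface, hardly varied. It lay between 11.85 and 12.02 in Ezh2-/- tumours and between 11.65 and 12.07 in Ezh2+/+ tumours, and 4 Ezh2+/+ tumours were below every Ezh2-/- tumour. Csn3 differed by 0.15 on the log2 scale (standard error 0.10, 95% interval -0.08 to 0.37, adjusted p = 0.337).

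For both whey genes, Ezh2+/+ replicates 1, 2 and 4 lay below every Ezh2-/- tumour. Lalba encodes alpha-lactalbumin, which turns galactosyltransferase into lactose synthase, and its log2 signals were 12.16, 12.20, 12.20, 12.18 and 12.35 in Ezh2-/- replicates 1 to 5, against 8.87, 11.84, 12.36, 11.77 and 12.18 in Ezh2+/+ replicates 1 to 5. The Ezh2-/- tumours were nearly equal, with an SD of 0.075 against 1.44 in Ezh2+/+ tumours, and Ezh2+/+ replicate 1 stood far below the other four. A log2 fold change of 0.81 resulted (standard error 0.52, 95% interval -0.32 to 1.94, adjusted p = 0.292), and without Ezh2+/+ replicate 1 it was 0.18. Wap, the gene of whey acidic protein, read 6.37, 6.11, 5.93, 6.85 and 6.72 in Ezh2-/- replicates 1 to 5, against 5.13, 4.82, 8.11, 4.99 and 6.54 in Ezh2+/+ replicates 1 to 5. In Wap, Ezh2+/+ replicate 3 stood above all other tumours and 3 Ezh2+/+ tumours stood below all Ezh2-/- tumours. For Wap the log2 fold change stood at 0.48 (standard error 0.53, 95% interval -0.66 to 1.62, adjusted p = 0.548).

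Glycam1 encodes a mucin-like glycoprotein of milk that is also made by the high endothelial venules of lymph nodes. Of the members it varied the most within genotypes, with a pooled SD of 2.11 log2 units. Its log2 signals were 8.82, 6.39, 6.76, 9.91 and 9.68 in Ezh2-/- replicates 1 to 5, against 6.81, 5.87, 11.73, 6.52 and 5.77 in Ezh2+/+ replicates 1 to 5. High values thus stood in Ezh2-/- replicates 1, 4 and 5 and in Ezh2+/+ replicate 3, and the remaining tumours of both genotypes overlapped. The log2 fold change was 0.97 with a 95% interval from -1.35 to 3.29 (standard error 1.07, adjusted p = 0.549), and without Ezh2+/+ replicate 3 it was 2.07 (adjusted p = 0.0708).

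The mean of the markers of high endothelial venules stayed at nearly the same level in all tumours. Of 7 markers, 5 were measured, and their mean lay between 4.90 and 5.03 in Ezh2-/- tumours, against 4.95 to 5.12 in Ezh2+/+ tumours. Chst4 read 3.17 to 3.64, Fut7 3.95 to 4.67 and Madcam1 4.22 to 4.95 over all tumours, below or near the array medians. Chst2, at 7.14 to 7.89, and Gcnt1, at 4.74 to 5.77, lay above every array median. A mean in which Chst4, Fut7 and Madcam1 are this dim says little about the amount of venule cells. The only marker that passed was Madcam1, the gene of a vascular addressin, at a log2 fold change of -0.44 (adjusted p = 0.0148 from limma). Adipocyte markers, with 9 of 10 measured, had mean levels of 7.23, 4.99, 5.09, 6.47 and 5.85 in Ezh2-/- replicates 1 to 5, so that the same 3 Ezh2-/- tumours were high as for Glycam1. In Ezh2+/+ tumours the adipocyte markers lay between 4.86 and 5.64, and replicate 3, the highest for Glycam1, read 5.06. Fibroblast markers were also highest in these 3 Ezh2-/- tumours, at 7.89, 7.97 and 7.63 in replicates 1, 4 and 5. T cell markers, with 4 of 6 measured, averaged 5.14 to 6.84 in Ezh2-/- tumours, against 4.67 to 5.10 in Ezh2+/+ tumours. Of these 4, 2 passed as higher, as did 7.29% of all genes. Markers of follicular dendritic cells, with 4 of 4 measured and 0 called, averaged 4.93, 4.26, 3.98, 4.88 and 5.36 in Ezh2-/- replicates 1 to 5, against 3.77 to 4.48 in Ezh2+/+ tumours. This mean was high in replicates 1, 4 and 5 mainly through the chemokine gene Cxcl13. Replicate 5 was also the highest of all tumours for Cr2 at 3.66, Fcer2a at 3.98 and Coch at 4.44. Cxcl13 read 9.11, 6.41, 5.17, 9.07 and 9.33 in Ezh2-/- replicates 1 to 5, against 4.58 to 7.08 in Ezh2+/+ tumours (adjusted p = 0.0555 from limma). Of the Ezh2-/- tumours, replicate 1 was the lowest for Cr2 at 2.68, and replicate 4 for Fcer2a at 3.35 and Coch at 3.87. B cell markers had 5 of 6 measured and 0 called. They averaged 3.98, 3.67, 3.82, 4.10 and 5.40 in Ezh2-/- replicates 1 to 5, against 3.74 to 4.14 in Ezh2+/+ tumours. Ezh2-/- replicates 1, 4 and 5 were thus the highest of their genotype, and only replicate 5 exceeded the Ezh2+/+ tumours. The part of fat tissue, stroma or lymphoid cells in the Glycam1 values was not tested.

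**Figure D2:**
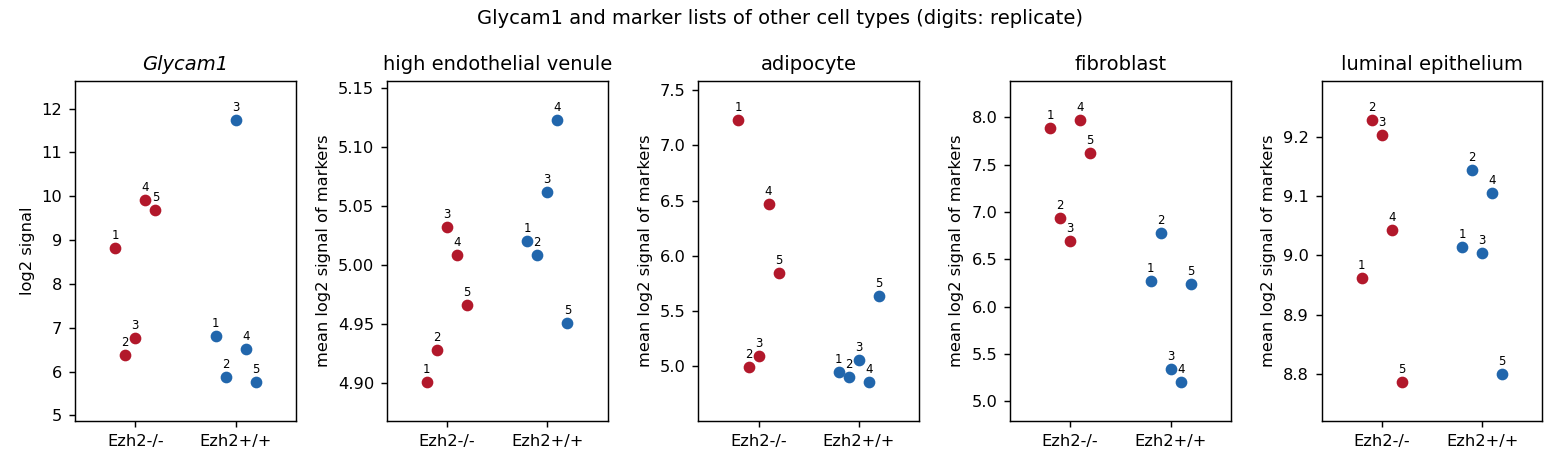
Log2 signal of Glycam1 (left) and mean log2 signal of marker lists (vertical axes, own scale per panel) in single Ezh2-/- and Ezh2+/+ tumours, with the replicate number at each point. The mean of the venule markers, several of them dim, spans 4.90 to 5.12 over all tumours. Adipocyte markers are high in Ezh2-/- replicates 1, 4 and 5 and fibroblast markers low in Ezh2+/+ replicates 3 and 4.

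The 3 genes of the fat globule membrane had the 3 smallest p-values of the list. Btn1a1 encodes butyrophilin, which with xanthine oxidoreductase anchors the membrane to the leaving droplet. Its log2 signals were 8.25, 8.91, 8.99, 8.59 and 7.98 in Ezh2-/- replicates 1 to 5, against 7.35, 6.40, 8.43, 6.22 and 7.59 in Ezh2+/+ replicates 1 to 5. Of the Ezh2-/- tumours 3 lay above every Ezh2+/+ tumour, and 4 Ezh2+/+ tumours lay below every Ezh2-/- tumour. Btn1a1 rose by a log2 fold change of 1.35, or 2.54-fold (standard error 0.37, 95% interval 0.55 to 2.14, adjusted p = 0.0306 from limma). The call held in 5 of the 10 fits that left out a tumour. It was lost without Ezh2-/- replicate 2, 3 or 4 and without Ezh2+/+ replicate 2 or 4, and also after quantile normalization (adjusted p = 0.0502), after cyclic loess (adjusted p = 0.0634) and in the adjusted equal-variance test of the methods (adjusted p = 0.0935). Over all alternatives its adjusted p ran from 0.00943 to 0.0935.

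Mfge8 encodes lactadherin, a globule protein that also bridges dying cells to phagocytes. It read 11.80, 11.77, 11.70, 11.87 and 11.33 in Ezh2-/- replicates 1 to 5, against 11.29, 11.33, 11.25, 11.32 and 10.47 in Ezh2+/+ replicates 1 to 5. The genotypes touched at Ezh2-/- replicate 5 and Ezh2+/+ replicate 2, and unlike the caseins the gene was not high in Ezh2+/+ replicate 3. Mfge8 rose by a log2 fold change of 0.56, or 1.48-fold (standard error 0.17, adjusted p = 0.0466). The call stood near the threshold and held in 2 of the 10 fits that left out a tumour, those without Ezh2-/- replicate 5 and without Ezh2+/+ replicate 2, with an adjusted p of 0.0106 to 0.105 over all alternatives.

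Mfge8 is also expressed outside the epithelium, and markers of other cells of the tumour moved in the same direction. Over all genes 7.29% passed as higher. Of 8 macrophage markers 3 were higher, with mean levels of 7.32 to 8.17 in Ezh2-/- tumours, against 6.82 to 7.59 in Ezh2+/+ tumours. Of 7 endothelial markers 5 were higher, with mean levels of 6.19 to 6.91 in Ezh2-/- tumours, against 5.55 to 6.10 in Ezh2+/+ tumours. Of 7 fibroblast markers 5 were higher, at 6.69 to 7.97 in Ezh2-/- tumours, against 5.21 to 6.78 in Ezh2+/+ tumours, with Ezh2+/+ replicates 3 and 4 the lowest at 5.34 and 5.21. The mean of the luminal markers was lowest in Ezh2-/- replicate 5 at 8.79 and in Ezh2+/+ replicate 5 at 8.80, the tumours that were lowest for Mfge8 in each genotype. The part of these cells in the values of Mfge8 was not tested.

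Xdh encodes xanthine oxidoreductase, an enzyme of purine breakdown that serves as a structural partner of butyrophilin in milk secretion. Its log2 signals were 9.02, 9.25, 9.48, 9.54 and 8.66 in Ezh2-/- replicates 1 to 5, against 7.65, 8.53, 9.36, 8.31 and 8.23 in Ezh2+/+ replicates 1 to 5. Of the Ezh2+/+ tumours 4 lay below all Ezh2-/- tumours, with replicate 3 among the high ones. The log2 fold change of 0.77 (standard error 0.27, 95% interval 0.19 to 1.36) did not pass (adjusted p = 0.0684), and it passed without Ezh2+/+ replicate 3 (adjusted p = 0.0166) and without Ezh2-/- replicate 5 (adjusted p = 0.0377).

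**Figure D3:**
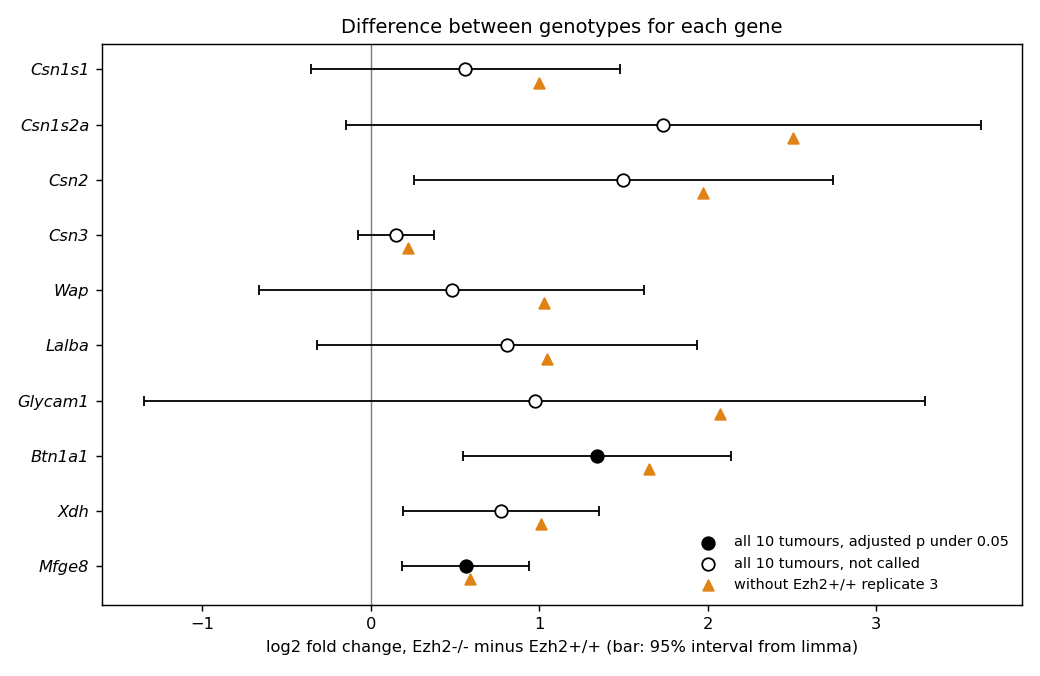
Log2 fold change, Ezh2-/- minus Ezh2+/+ (horizontal axis), with its 95% interval from limma for each gene, filled where the adjusted p was under 0.05, and the value without Ezh2+/+ replicate 3 as a triangle. All 10 values are above 0, the filled ones being Btn1a1 at 1.35 and Mfge8 at 0.56, and all 10 triangles lie to the right of the value from all tumours.

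One Ezh2+/+ tumour decided several of these calls. Without Ezh2+/+ replicate 3, 5 members were called higher in place of 2, namely Csn1s1, Csn1s2a, Csn2, Btn1a1 and Xdh. Csn1s1 then stood at 1.00 (adjusted p = 0.0381), Csn1s2a at 2.51 (adjusted p = 0.0402) and Csn2 at 1.97 (adjusted p = 0.0276) on the log2 scale, while Mfge8 was no longer called (adjusted p = 0.0675). For Csn1s1, Csn1s2a and Csn2, leaving out Ezh2+/+ replicate 1, 2 or 4 gave smaller differences. Leaving out Ezh2+/+ replicate 5 gave larger ones for these caseins. Without Ezh2+/+ replicate 1, Csn1s2a stood at 1.11 and Csn2 at 0.98 on the log2 scale (adjusted p = 0.339 and 0.141). Without Ezh2+/+ replicate 4, Csn1s1 stood at 0.31 (adjusted p = 0.631), and without Ezh2+/+ replicate 2, Wap stood at 0.20 (adjusted p = 0.816). Without Ezh2-/- replicate 2, 3 or 4, or without Ezh2+/+ replicate 4, 0 were called. Under 23 alternatives in all, each of the 10 genes kept its direction. Those that changed only the test, the probe sets, the genes tested or the replicate block could not alter these fold changes.

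The spread of the 10 genes within each genotype was also compared, as a description without a test. The genes were measured in the same tumours, so they are not 10 separate observations of spread. In all 10 genes the SD was larger among Ezh2+/+ than among Ezh2-/- tumours, where this held for 51.8% of all genes. For Csn1s2a the SD was 0.83 in Ezh2-/- and 2.27 in Ezh2+/+ tumours, and for Wap it was 0.39 in Ezh2-/- and 1.40 in Ezh2+/+ tumours. Without Ezh2+/+ replicate 3 it was 8 of 10, Csn3 and Glycam1 being the exceptions, and without Ezh2+/+ replicate 5 it was 9 of 10, with Mfge8 the exception. Ezh2+/+ replicate 3 was the highest of the 10 tumours in 7 genes, and an Ezh2+/+ tumour was the lowest in all 10 genes. Csn2, Lalba and Csn3 read between 11.85 and 12.76 in the Ezh2-/- tumours, where the highest value on any array was 13.2.

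After the genotype means were taken away, the genes of the milk proteins varied together from tumour to tumour. Among Csn1s1, Csn1s2a, Csn2, Csn3, Wap and Lalba the 15 pairs had correlations of 0.18 to 0.97 over 10 tumours, with a median of 0.76. The median was 0.44 without Ezh2+/+ replicate 3, so that much of the shared variation rested on that tumour. Csn2 and Csn1s2a correlated at 0.97 with it and at 0.94 without it, whereas Csn1s1 and Lalba stood at 0.18 with it and -0.26 without it. Csn1s1 correlated with Csn2 at 0.66 with that tumour and 0.24 without it, and with Csn1s2a at 0.76 with it and 0.44 without it. Over all 45 pairs of the 10 genes the median was 0.57 with 38 pairs positive, and without Ezh2+/+ replicate 3 it was 0.14 with 28 positive. Mfge8 ran apart, with a correlation of -0.34 with the mean deviation of the milk proteins, and -0.73 without that tumour. These correlations describe tumours that share arrays and tissue composition, and no test is attached to them.

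The genes whose deviations were most like those of the milk proteins were sought among 986 genes with a within-genotype SD of at least 0.5, members left out. The 8 closest, leaving out predicted genes and clones, were Slc16a12, Lao1, Duoxa1, Abcg2, Zscan4b, Dpp4, Slc30a2 and Lpo, with correlations of 0.92 to 0.98 over 10 tumours. Without Ezh2+/+ replicate 3 they were 0.83 to 0.98. Of the 986 genes, 10 had a correlation over 0.9 and 6 one below -0.9. The mean deviation of the milk proteins ran from -0.43 to 0.25 in Ezh2-/- tumours, against -1.34 to 1.69 in Ezh2+/+ tumours. The ranking thus rested mainly on the Ezh2+/+ tumours. Slc16a12, a monocarboxylate transporter family gene, was at 0.98, and Lao1, whose product is an amino acid oxidase found in mouse milk, at 0.98. Abcg2, Slc30a2 and Lpo encode a transporter that moves riboflavin into milk, a zinc transporter and lactoperoxidase.

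Of these 8 genes, 5 had the higher mean in Ezh2-/- tumours, where 53.3% of all genes had. Of the 8, 1 passed as higher and 1 as lower, against 7.29% and 7.56% of all genes. Lao1 had a median of 10.28 and a highest value of 10.67 in Ezh2-/- tumours, against 7.88, 8.79, 11.85, 9.57 and 10.77 in Ezh2+/+ replicates 1 to 5, a log2 fold change of 0.56 (adjusted p = 0.518). Duoxa1 stood at 0.18 (adjusted p = 0.679), Abcg2 at 0.15 (adjusted p = 0.800) and Lpo at 0.18 (adjusted p = 0.734) on the log2 scale. Slc30a2 had a log2 fold change of -0.53 (adjusted p = 0.247) and Slc16a12 of -0.42 (adjusted p = 0.504). Dpp4, the gene of a cell surface peptidase, rose by 0.97 on the log2 scale (adjusted p = 0.0396), and Zscan4b fell by 1.07 on the log2 scale (adjusted p = 0.0446). In fits that left out a tumour, the call of Dpp4 held in 2 of 10 and that of Zscan4b in 4 of 10. Zscan4b read 2.27 to 2.72 in Ezh2-/- tumours, against 2.92 to 4.93 in Ezh2+/+ tumours. All its Ezh2-/- values lay below the array medians, as did those of Ezh2+/+ replicates 1, 2, 4 and 5. The size of its difference is therefore uncertain, and Zscan4b belongs to a family of near-identical copies that may share probes.

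**Figure D4:**
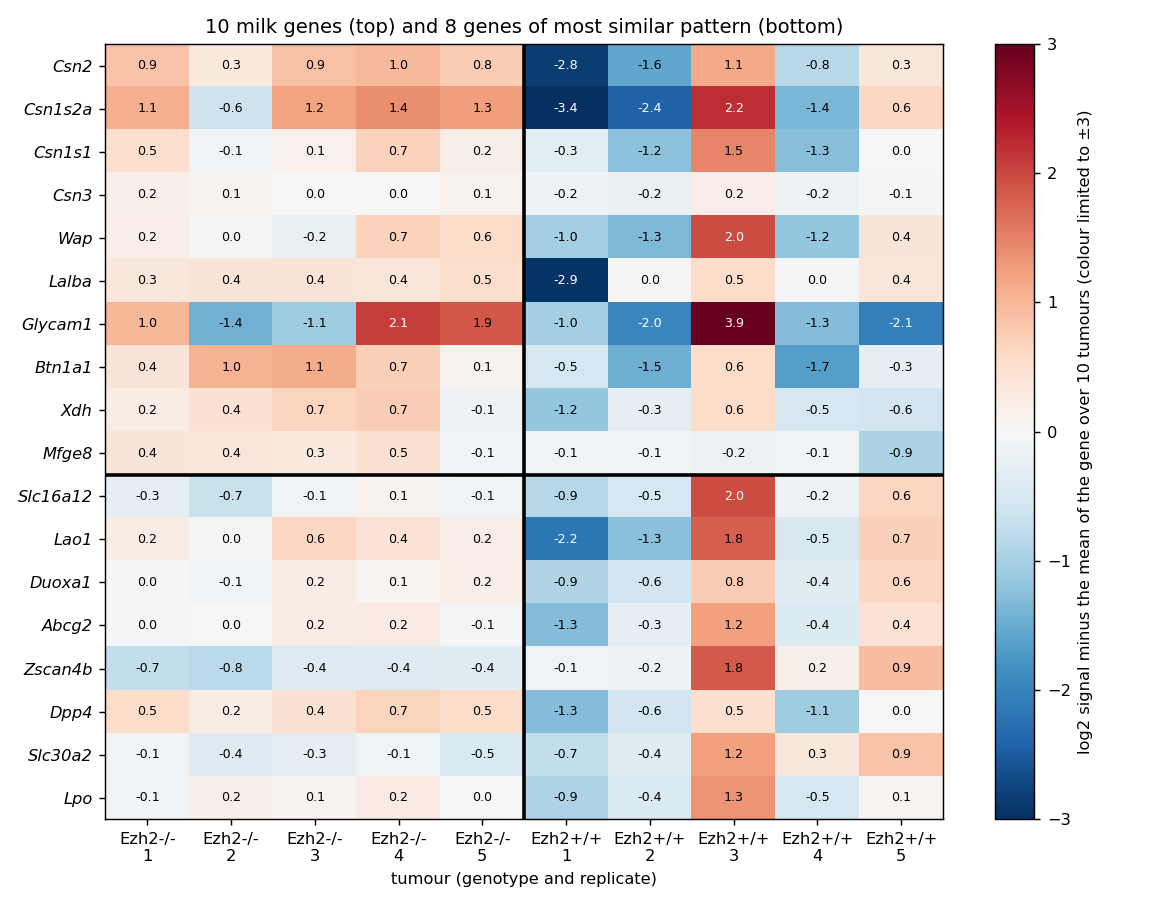
Log2 signal of each gene minus its mean over the 10 tumours (colour and digits) for the 10 milk genes above the line and the 8 genes of most similar pattern below it, in Ezh2-/- tumours left and Ezh2+/+ tumours right of the vertical line. Most rows are highest in Ezh2+/+ replicate 3 and lowest in Ezh2+/+ replicate 1, 2 or 4, and the Ezh2-/- tumours lie between these for the caseins.

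Other genes within the casein cluster were looked at by position. From Csn1s1 to Csn3, RefSeq lists 11 genes, 8 of which had a probe set of a single gene. Csn1s2b, the gene of a further alpha-S2-like casein, read 6.76, 4.94, 5.83, 6.89 and 7.92 in Ezh2-/- replicates 1 to 5, against 3.73, 4.58, 9.99, 5.27 and 5.43 in Ezh2+/+ replicates 1 to 5. Its highest tumour was again Ezh2+/+ replicate 3, and its log2 fold change was 0.67 (adjusted p = 0.658). Odam, which encodes an ameloblast protein, had a log2 fold change of 0.69 (adjusted p = 0.0611) and Prr27 one of -0.58 (adjusted p = 0.295). 

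Wider lists of lactation genes were counted in the same fit, where all genes had a median of 0.03 and 7.29% of them passed as higher and 7.56% as lower. Of 17 measured genes of other milk and fat globule proteins, 0 were higher and 1 lower in limma, with 3 higher and 2 lower at an unadjusted p under 0.05, and in the adjusted equal-variance test of the methods 0 were higher and 1 lower. The lower member was Plin3, which encodes a coat protein of lipid droplets. It read 7.99 to 8.18 in Ezh2-/- tumours, against 8.37 to 8.60 in Ezh2+/+ tumours, and the genotypes did not overlap. Plin3 fell by 0.46 on the log2 scale (standard error 0.092, adjusted p = 0.00822). The members with the largest differences that did not pass were Cel, the gene of bile salt-stimulated lipase, at -1.31 (adjusted p = 0.227) and Cd36, a fatty acid receptor gene also of adipocytes, at 1.29 (adjusted p = 0.149). The median log2 fold change of the list was 0.21.

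Of 22 measured genes of lactose and milk fat synthesis, 1 was higher and 0 were lower, with 3 higher and 0 lower at an unadjusted p under 0.05, and in the adjusted equal-variance test 0 passed. Agpat1, an acyltransferase gene of glycerolipid synthesis, rose by 0.51 on the log2 scale (standard error 0.14, adjusted p = 0.0305). Its log2 signals were 7.56 to 7.86 in Ezh2-/- tumours, against 6.73 to 7.53 in Ezh2+/+ tumours, without overlap, and the call held in 6 of the 10 fits that left out a tumour. Dgat2, the gene of a triglyceride synthase, stood at 1.07 (adjusted p = 0.0911) and Fasn, that of fatty acid synthase, at 0.72 (adjusted p = 0.224). The list's median was 0.24.

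Of 23 measured genes of prolactin and STAT5 signalling and of alveolar regulators, 2 were higher and 0 were lower, with 7 higher and 0 lower at an unadjusted p under 0.05, and 1 higher in the adjusted equal-variance test. The 2 of 23 genes are close to the share over all genes. Gata3, a factor gene of the luminal lineage, read 8.95, 9.17, 9.27, 9.18 and 8.67 in Ezh2-/- replicates 1 to 5, against 8.45, 8.58, 8.76, 8.52 and 8.36 in Ezh2+/+ replicates 1 to 5. The genotypes overlapped in Ezh2-/- replicate 5 and Ezh2+/+ replicate 3 alone, and Gata3 rose by 0.51 on the log2 scale (standard error 0.13, adjusted p = 0.0237). Stat5b read 7.37, 8.02, 7.51, 7.75 and 7.31 in Ezh2-/- replicates 1 to 5, against 6.92, 7.10, 7.50, 6.88 and 6.86 in Ezh2+/+ replicates 1 to 5. It rose by 0.54 on the log2 scale (standard error 0.16, adjusted p = 0.0450), and the call held in 2 of the 10 fits that left out a tumour, against 6 of 10 for Gata3. Its paralogue Stat5a stood at 0.57 (adjusted p = 0.111), Socs2, a feedback inhibitor gene, at 0.62 (adjusted p = 0.301), and Elf5, a factor gene of alveolar cells, at 0.24 (adjusted p = 0.233). The list's median was 0.21, and Prlr, the prolactin receptor gene, had no probe set of a single gene in the annotation used here.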

How the data were processed

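RNA of whole tumours was read on Affymetrix Mouse Gene 2.0 ST arrays, 1 per tumour. The authors normalized the arrays in Affymetrix Expression Console and deposited gene-level values, treated here as log2 values because they span 0.595 to 13.2. The sources used here name neither the log base nor the algorithm. The platform annotation gave 23521 of 41345 probe sets 1 gene symbol, and 23328 of these matched RefSeq by Entrez ID. A gene with several probe sets was represented by its brightest, which left 22180 genes, and each member had 1 probe set. Genotypes were compared with limma 3.58.1 in R 4.3.3 (default prior, two-sided, Benjamini-Hochberg adjustment over all genes), without a filter on dim genes. The number of arrays limits the precision. The equal-variance test of the methods is an ANOVA of 2 groups, to which an adjustment was added here. The members and lists were chosen with earlier results of these data known. Named list genes were those that passed, up to 4 a list, and the 2 largest differences that did not. Elf5 and the casein neighbours were named after their values were seen. Alternatives covered the test, the scaling, the probe sets used, the replicate block and leaving out tumours. Figures were drawn with matplotlib 3.10.9.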

Additional observations from a re-analysis of the deposited data

Results flagged for a closer look

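In groups of 5 tumours, a value was singled out where its gap to the nearest tumour exceeded 0.71 of the range of its genotype. Of 56 such groups, over 28 named genes, 6 were singled out. The limit singles out about 1 in 20 where groups are independent and values normally distributed. The genes share the same tumours, so the 6 of 56 cannot be set against that rate. Ezh2+/+ replicate 1 stood low for Lalba at 8.87 (nearest 11.77) and for Stat5a at 5.98 (nearest 6.94). Ezh2+/+ replicate 3 stood high for Glycam1 at 11.73 (nearest 6.81), and Ezh2+/+ replicate 5 low for Mfge8 at 10.47 (nearest 11.25). Ezh2-/- replicate 2 stood low for Csn1s2a at 9.69 (nearest 11.40), and Ezh2-/- replicate 5 high for Lalba at 12.35 (nearest 12.20), a gap within a narrow range.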

How the results depend on the processing

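All 10 genes kept the higher mean in Ezh2-/- tumours under 23 alternatives, 1 of them, median centring over all probe sets, added after seeing the data. Alternatives that changed only the test, the probe sets, the genes tested or the replicate block could not turn the direction, since they left these fold changes as they were. The calls of the 10 genes moved. Over the 10 genes and all alternatives 197 values stayed on the same side of the threshold, 21 lost a call and 12 gained one, and the causes were not tested.
The members called higher, 2 with the values as deposited, numbered 0 in the adjusted equal-variance test and after quantile normalization, 1 after median centring, after cyclic loess, without the 40% dimmest genes and with all probe sets, and 5 after median centring over all probe sets. Without single tumours they ranged from 0 to 5, and 0 were lower throughout.
Of other milk proteins, 2 were higher in the unadjusted equal-variance test, with array weights, with the replicate block and after median centring over all probe sets, and 0 to 2 were higher and 1 to 2 lower without single tumours. Without the 2 Ezh2-/- tumours high in Acta1, replicates 1 and 5, 2 were lower.
Of genes of lactose and fat synthesis, 2 were higher in the unadjusted equal-variance test, with array weights and without these 2 tumours, 0 in the adjusted equal-variance test, after quantile normalization and after cyclic loess, 3 with the replicate block, 4 after median centring over all probe sets and 0 to 2 without single tumours.
Of prolactin and STAT5 genes, 4 were higher in the unadjusted equal-variance test, with the replicate block and without these 2 tumours, 1 in the adjusted equal-variance test, after quantile normalization, median centring and cyclic loess and with all probe sets, 9 after median centring over all probe sets and 0 to 4 without single tumours.
Over all genes, 1617 were higher and 1676 lower (49.1% higher). The split was 3572 and 3321 in the unadjusted equal-variance test, 862 and 1153 in the adjusted one, 2434 and 2108 with array weights (53.6%), 1337 and 882 after quantile normalization (60.3%), 1220 and 2051 after median centring (37.3%), 1094 and 996 after cyclic loess, 1412 and 535 without the dimmest genes, 2169 and 4415 with all probe sets and 5219 and 927 after median centring over all probe sets (84.9%), under which all genes had a median of 0.20. Without single tumours 748 to 2519 were higher and 983 to 1920 lower.
No label says that the replicate numbers mark a shared origin, and they were not taken to pair the tumours. Same-numbered tumours had correlations of their deviations from -0.04 to 0.34, 3 of 5 over 0.1, and 4 of 10 tumours correlated best with their own number. With the replicate block 2552 genes were higher and 1894 lower, and Xdh (adjusted p = 0.0230), Dgat2 (adjusted p = 0.0223) and Stat5a (adjusted p = 0.0359) were called as well.
Among the named genes, signs turned in 4 of those with a pattern like the milk proteins. Without single tumours, Abcg2 ranged from -0.16 to 0.47 on the log2 scale, Duoxa1 from -0.022 to 0.40, Lpo from -0.031 to 0.53 and Slc16a12 from -0.69 to 0.012, and Abcg2 stood at -0.0051 after cyclic loess.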
